A study of Homo sapiens with 4 samples.

Results

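Among the places where BRPF3 was mapped in RKO cells, an established human colon carcinoma line, 491 stood alone, with no other BRPF3 region within 300 kb of either edge. They are called isolated regions here. Peaks of the 3 deposited lists that overlapped by 1 bp or more were merged into 14039 regions, and isolated regions were sought on chromosomes 1 to 12, 14 to 16 and 20 to 22, which held 11350 of them. The other 10859 regions on these chromosomes are called other regions. The lists came from chromatin immunoprecipitation followed by sequencing (ChIP-seq) with a homemade rabbit BRPF3 antibody, and each was called against the same IgG library. A description label of these libraries gives different BRPF proteins, and the titles and antibody labels were followed. Mimosine cells were held for 22 h in 0.5 mM mimosine. HU cells had the same mimosine treatment, a release of 3 h and then 3 mM hydroxyurea for 1 h 30 min, as did the cells of the IgG library. Asynchronous cells grew untreated. Each condition had 1 BRPF3 library, so the values below describe these libraries and carry no test, and the read depth behind the lists is unknown.

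BRPF3 is a scaffold protein that binds chromatin and joins a MYST-family histone acetyltransferase, such as HBO1 (KAT7), to its accessory subunits. In human cells, HBO1 complexes acetylate histone H3 and H4 tails, and BRPF3 with HBO1 has been tied to histone H3 lysine 14 acetylation and the firing of replication origins. Mimosine, a plant amino acid that binds iron, blocks cells near the entry into S phase. Hydroxyurea inhibits ribonucleotide reductase, and replication forks slow as deoxynucleotides run out.

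The positions of peaks in all 3 lists chose the members, so distances, positions and the lists that hold a region are given as a description. Peak width and score were not used by the rule. The score is the authors' own value for a peak, in form 10 times the negative base-10 logarithm of the p-value. It was turned into a rank percentile within its own list, 100 being the strongest, with scores above 3100 set to 3100.

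The regions nearest to the 300 kb limit show what it separates. Just inside lay a pair of neighbours on chromosome 6, chr6:147523108-147527787 and chr6:147828692-147831656, 300.9 kb apart, both called in all 3 lists. Just outside lay chr5:102896614-102899183, called in HU and asynchronous cells, with its nearest region 299.4 kb away, and chr1:84463892-84465752, called in HU cells only, with its nearest at 298.0 kb. Positions are in hg19, counted from 1.

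Isolated regions were found on all 18 chromosomes. They made up 4.33% of the regions there (491 of 11350, exact 95% interval 3.96 to 4.72%) and covered 1.51 Mb of the 37.9 Mb held by all regions on these chromosomes. The share was 7.42% on chromosome 4 (40 of 539 regions, 5.35 to 9.97%) and 7.11% on chromosome 5 (45 of 633, 5.23 to 9.40%). Chromosome 22 had 3 isolated regions of 343 (0.875%, 0.181 to 2.53%) and chromosome 16 had 13 of 608 (2.14%, 1.14 to 3.63%). These chromosomes also differed in the density of BRPF3 regions, with 2.82 regions per Mb on chromosome 4, 3.51 on chromosome 5, 6.75 on chromosome 16 and 9.79 on chromosome 22. Intervals cover counting error only.

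**Figure D1:**
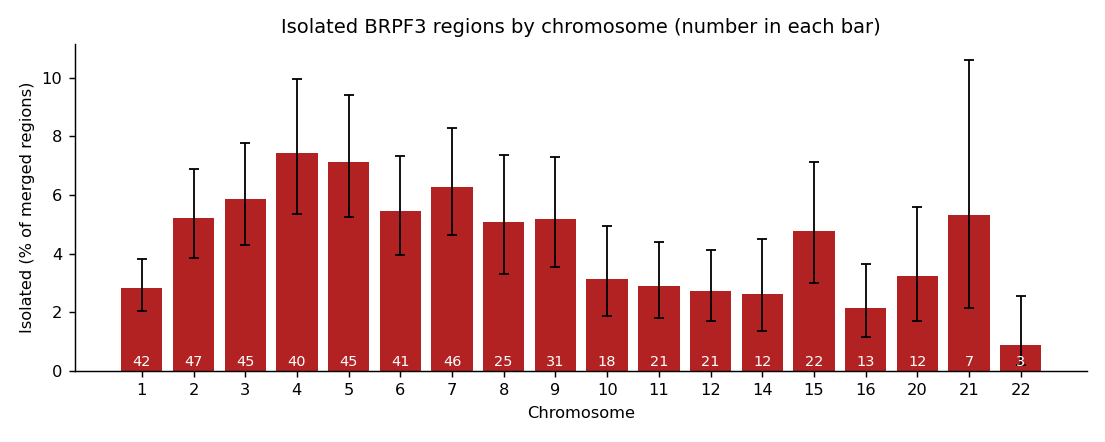
Isolated BRPF3 regions as a percentage of merged regions on each of the 18 chromosomes, with exact 95% intervals as error bars and the number of isolated regions inside each bar. Chromosome 4 stands highest at 7.42% and chromosome 22 lowest at 0.875%.

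The nearer neighbour of an isolated region lay a median of 501 kb away (interquartile range 377 to 777 kb) and the farther one 1163 kb (681 to 2049 kb). Other regions had medians of 26.8 kb and 112 kb. Within 1 Mb of an isolated region there was a median of 4 further regions, against 16 around other regions, which follows from the rule. Whether the surrounding chromatin is sparse in any other sense was not tested, since no map of genes or of chromatin state in the build of the lists was used. Assembly gaps were not removed, and 51 isolated regions had a gap of over 3 Mb on at least 1 side. A chromosome end counted as no neighbour for 6 of them.

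Isolated regions also lay next to each other along a chromosome, which follows in part from the rule. A neighbour of an isolated region already has a gap of over 300 kb on the shared side. How many such neighbours the rule alone would give was not worked out. The 491 regions formed 341 stretches of neighbouring isolated regions. Of these stretches, 236 held 1 region, 69 held 2 and 36 held 3 or more, so 255 isolated regions had an isolated region as a neighbour. The longest stretches held 5 regions each. One ran over chr1:215739811-219349340, 3.61 Mb long, with 3 of its 5 regions called in all 3 lists. The other ran over chr3:151985640-155027629, 3.04 Mb long, with 4 of 5 called in all 3 lists.

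The 5 regions with the most empty surroundings were not alike in their peaks. The region chr2:145088055-145090770 had 3510 kb free of BRPF3 regions on its nearer side and 5826 kb on the other. Its peak was 1149 bp wide in mimosine, 2349 bp in HU and 2716 bp in asynchronous cells, at rank percentiles 19.6, 43.0 and 43.0 of these lists. On chromosome 3, chr3:79065027-79069408 and chr3:81807814-81812387 were neighbours of each other across 2738 kb. Both were called in all 3 lists, at rank percentiles of 57.1 and 69.4 in mimosine, 70.8 and 67.6 in HU and 70.8 and 50.05 in asynchronous cells. The other members of this group were weak. The region chr4:60684066-60685065 had peaks of 976 bp in HU and 938 bp in asynchronous cells, with scores of 103 and 90.9, and none in mimosine cells. The region chr4:133338098-133338911 was called in asynchronous cells only, over 814 bp with a score of 69.8.

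Most isolated regions were called in every condition. All 3 lists held a peak in 345 of the 491 (70.3%, 66.0 to 74.3%), beside 71.5% of all merged regions and 72.2% of other regions (71.4 to 73.0%). HU and asynchronous cells without mimosine cells shared 72 (14.7%). HU cells alone held 41 (8.35%, against 8.408% of other regions) and asynchronous cells alone 23 (4.684%, against 4.899%). Mimosine cells alone held 6 (1.222%, 0.4497 to 2.641%), against 21 of 10859 other regions (0.1934%, 0.1197 to 0.2955%). The 6 mimosine-only regions were few and weak, with a median score of 65.2, and the share of this class over all merged regions was not worked out. A further 3 were shared by mimosine and HU cells and 1 by mimosine and asynchronous cells. Calls in a single list thus numbered 70 (14.3%, 11.3 to 17.7%), near the 13.3% of all merged regions. Since membership in the lists entered the rule, nothing is read from these shares. Seen from a single list, 509 mimosine, 486 HU and 489 asynchronous peaks had no other peak of that list within 300 kb. Of these, 307, 457 and 434 lay in isolated regions. The remaining 202 mimosine, 29 HU and 55 asynchronous peaks lay in merged regions that had another region within 300 kb once all lists were joined.

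Calls in a single list were weak and narrow at isolated and other sites alike. They measured a median of 354 bp in mimosine, 896 bp in HU and 914 bp in asynchronous cells, and their median rank percentiles were 8.65, 5.90 and 7.85. Single-list calls among other regions measured 407, 1133 and 969 bp, at 4.22, 6.95 and 5.96. The strongest of each kind are given next. For HU cells it was chr3:190231155-190233361, 2207 bp wide with a score of 260 (rank percentile 31.6). For asynchronous cells it was chr6:152622665-152623635, 971 bp wide with a score of 119 (15.7). For mimosine cells it was chr11:49455858-49456209, 352 bp wide with a score of 76.1 (13.5). Its farther neighbour lay 7622 kb away, a distance from which any assembly gap was not removed. In the mimosine and HU class, chr11:44585942-44590956 held a mimosine peak of 811 bp and a pair of HU peaks covering 5000 bp. The sole region of mimosine and asynchronous cells, chr1:58513920-58514370, had a mimosine peak of 193 bp within an asynchronous peak of 451 bp.

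Few isolated regions were among the strongest peaks. Of the 417 isolated regions called in both HU and asynchronous cells, 24 (5.76%, 3.72 to 8.44%) had an asynchronous score in the highest 10% of its list. The background over all merged regions called in both was 10.8%, and other regions had 1076 of 9347 (11.51%, 10.9 to 12.2%). At the weak end the shares were close, with 13.2% of isolated and 13.4% of other regions in the lowest 20% of the asynchronous list. A score of 3100 or more was reached by 1.13% of isolated regions with a mimosine peak, 4.12% with an HU peak and 3.86% with an asynchronous peak, against 3.52, 7.72 and 8.12% of other regions. Among regions whose nearest region lay 100 to 300 kb away, 146 of 1447 (10.1%, 8.59 to 11.8%) were in the highest 10% of the asynchronous list. The share was 15.96% (14.2 to 17.8%) where the nearest region lay within 5 kb. The gap between isolated and other regions shrank to 23.4% (19.9 to 27.2%) against 25.7% (24.3 to 27.1%) when equal numbers of top-scoring peaks were used.

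**Figure D2:**
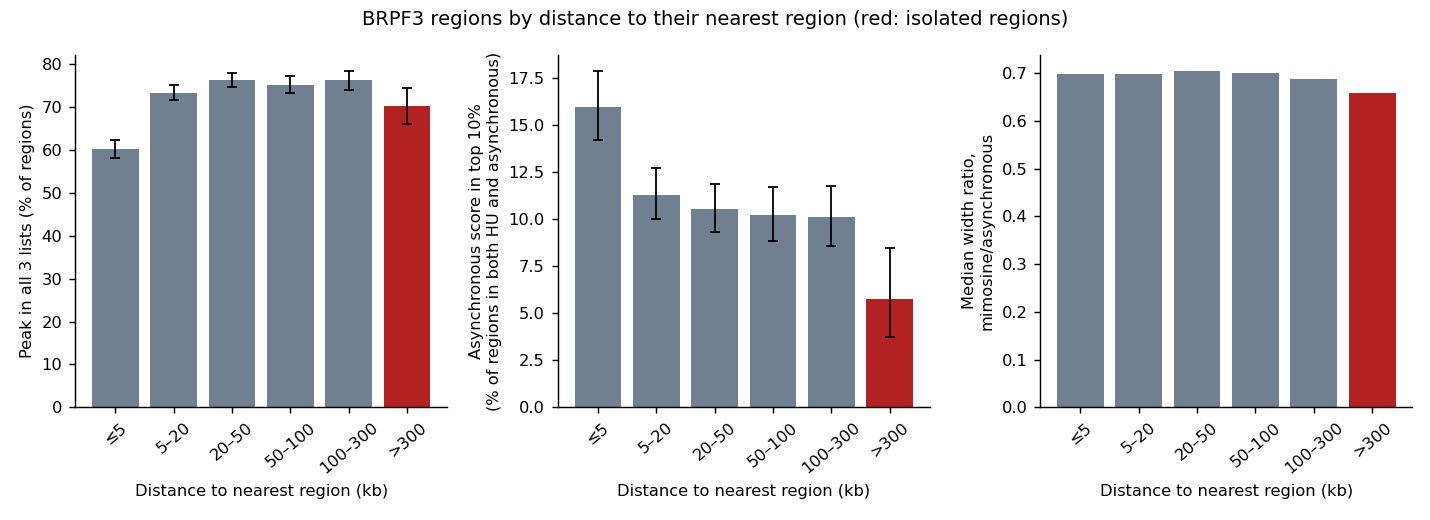
Merged regions on the 18 chromosomes grouped by distance to the nearest region in kb, with isolated regions in red. The left panel gives the percentage with a peak in all 3 lists and the middle panel the percentage with an asynchronous score in the highest 10% of its list, with exact 95% intervals, and the right panel gives the median ratio of mimosine to asynchronous peak width. The isolated class stands at 70.3%, 5.76% and 0.659, and the class of 100 to 300 kb at 76.2%, 10.1% and 0.688.

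The strongest isolated regions had peaks near or at the score limit in every list. A score of 3100 or more in all 3 lists was held by 3 regions. In the region chr15:70386413-70392420, peaks were 5014 bp wide in mimosine, 5924 bp in HU and 5795 bp in asynchronous cells. The region chr9:74975852-74981380 had 4510, 5475 and 5173 bp in the same order, and lay 447 kb from its nearest region. The third, chr2:192541598-192551876, had 6654, 8729 and 10269 bp, and was the only one of these 3 in which the HU peak was narrower than the asynchronous peak. Next came chr21:27538529-27544171 and chr4:111116169-111120707, with scores of 3028 and 2939 in mimosine cells and 3100 in both HU and asynchronous cells.

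Broad regions were rare. Of the 491, 5 spanned over 10 kb (1.02%, 0.332 to 2.36%), against 1.46% of other regions and a background of 1.28%. The median merged width was 2965 bp (1858 to 3981 bp) in isolated and 2999 bp (1941 to 4186 bp) in other regions. The widest isolated region was chr5:66299169-66312662, 13.5 kb long, where a single HU peak covered the whole length, 1 asynchronous peak covered 96.2% and 3 mimosine peaks together covered 81.0%. The region chr1:158978940-158991030 was 12.1 kb long with 1 peak per list, of 7986 bp in mimosine, 11929 bp in HU and 11712 bp in asynchronous cells. In chr11:58339108-58351129, also 12.02 kb long, mimosine peaks covered 52.3% and asynchronous peaks 62.3% of a region that HU cells held as 1 peak. The region chr3:187454531-187466222 kept most of its length in mimosine cells, with 9896 bp against 11692 bp in HU and 10034 bp in asynchronous cells.

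Mimosine cells broke up 48 of the 345 isolated regions that every list held into at least 2 peaks (13.9%, 10.4 to 18.0%), beside a background of 11.9%. HU cells split 3 (0.870%) and asynchronous cells 7 (2.03%), against 1.16% and 2.69% of other regions. In 7 regions (2.03%) there were 3 or more mimosine peaks, against 1.38% of other regions, so all of these shares were near those of other regions. Among them, chr2:43446169-43455580 held 3 mimosine peaks over 8038 bp, where HU cells had 1 peak of 9268 bp and asynchronous cells 1 of 9252 bp. The region chr6:15244515-15250150 held 3 mimosine peaks over 4176 bp, against 5570 bp in HU and 5586 bp in asynchronous cells.

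Among isolated regions called in HU and asynchronous cells, mimosine peaks were missing only at weaker sites, and most weaker sites had one. Of the 417 isolated regions called in HU and asynchronous cells, 72 had no mimosine peak (17.3%, 13.8 to 21.2%), close to the 17% of all such merged regions and the 16.1% of other regions (15.4 to 16.9%). This share depended on the setting, at 38.8% under a reciprocal overlap of 50% and 31.7% with mimosine scores of at least 100. The share of other regions under these settings was not worked out. With equal numbers of top-scoring peaks, no mimosine peak was found in 8.80% of isolated and 7.06% of other regions. Above rank percentile 50 of the asynchronous list none of 228 lacked one, which allows a share of up to 1.32% at 3 counts and of 1.605% by the exact interval, against 13 of 5233 (0.248%) of other regions. Up to rank percentile 50 the counts were 72 of 189 (38.1%, 31.1 to 45.4%) in isolated and 1494 of 4114 (36.3%, 34.8 to 37.8%) in other regions. In the score group from rank percentile 30 to 40, 12 of 49 isolated regions lacked a mimosine peak (24.5%, 13.3 to 38.9%), against 132 of 971 other regions (13.6%, 11.5 to 15.9%), and the intervals overlapped. The group from 20 to 30 gave 13 of 28 isolated regions (46.4%, 27.5 to 66.1%) and 36.8% of other regions. The share was also higher in isolated regions up to rank percentile 10 (91.7 against 88.8%) and from 10 to 20 (79.1 against 72.4%). From 40 to 50 it was lower (3.51 against 4.47%). The groups of isolated regions were small, and whether the sets differ within a score group was not tested.

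**Figure D3:**
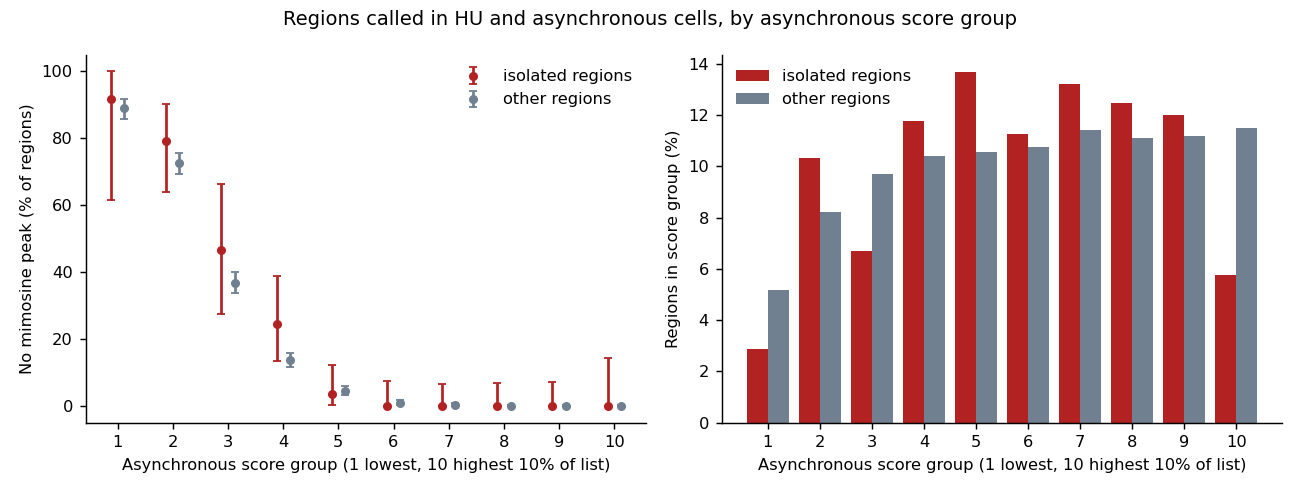
Regions called in HU and asynchronous cells in 10 groups of asynchronous score, for isolated (red) and other (grey) regions. The left panel gives the percentage with no mimosine peak, with exact 95% intervals, and the right panel the percentage of each set in the score group. The percentage missing in isolated regions was 24.5% in group 4 and 0% from group 6 upward, and 5.76% of isolated regions fell in group 10, against 11.51% of other regions.

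The strongest isolated regions without a mimosine peak stayed below rank percentile 50. The region chr3:61235413-61238578 had an HU peak of 3166 bp at rank percentile 31.8 and an asynchronous peak of 2744 bp at 44.2. For chr5:170288576-170290317 the rank percentiles were 34.3 in HU and 43.1 in asynchronous cells, and for chr12:59312789-59314820 they were 21.3 and 39.4. By the lower of both ranks, chr5:110073634-110076862 led this class, at 41.6 in HU and 35.3 in asynchronous cells.

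At isolated sites shared by all conditions the mimosine peaks were the narrowest. In the 295 isolated regions with exactly 1 peak per list, mimosine peaks had a median width of 1875 bp, HU peaks 3213 bp and asynchronous peaks 2917 bp. Other regions of this kind, 6763 in number, had 2037, 3268 and 2960 bp. The mimosine peak was narrower than the HU peak in all 295 and narrower than the asynchronous peak in 293 (99.3%). Other regions gave 99.96% and 98.2%, so this held in both sets. It lay wholly inside the asynchronous peak in 268 regions (90.8%, 87.0 to 93.9%), beside a background of 89.8%. The length was missing on both sides, with medians of 429 bp toward the lower and 431 bp toward the higher coordinate, against 386 and 392 bp in other regions.

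The ratio of mimosine to asynchronous width had a median of 0.659 (interquartile range 0.542 to 0.780) in isolated regions, against 0.699 (0.578 to 0.804) in other regions and 0.688 (0.569 to 0.793) where the nearest region lay 100 to 300 kb away. The spread among regions of each set was far wider than the distance between the medians. Exact order-statistic 95% intervals of the median were 0.637 to 0.680 in isolated and 0.695 to 0.704 in other regions. A mimosine peak under 0.5 of the asynchronous width was seen in 60 of 295 isolated regions (20.3%, 15.9 to 25.4%), against 932 of 6763 other regions (13.8%, 12.97 to 14.6%), with a background of 14.9%. Where the nearest region lay 100 to 300 kb away, 159 of 1041 had such a peak (15.3%, 13.1 to 17.6%), and the interval overlapped that of isolated regions. Within quartiles of asynchronous score the median ratio was 0.549, 0.571, 0.658 and 0.767 in isolated regions, lowest quartile first, against 0.587, 0.613, 0.701 and 0.772 in other regions. The lowest quartile held 19 isolated regions.

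In the mimosine list these shared sites also ranked lower than in the asynchronous list. The rank percentile in the mimosine list minus that in the asynchronous list had a median of -9.88 in the 295 isolated regions (interquartile range -18.8 to -2.26), against -5.01 in the 6763 other regions (-13.7 to 1.79). It was below 0 in 235 of 295 isolated regions (79.7%, 74.6 to 84.1%) and in 69.2% of other regions (68.1 to 70.3%). Where the nearest region lay 100 to 300 kb away, the median was -6.62, and 72.1% were below 0 (69.3 to 74.85%). Ranks are relative to the whole list, so a lower rank does not say that less BRPF3 was bound. In both sets a lower mimosine rank also follows in part from the choice of regions. Regions with a peak in every list leave out asynchronous peaks without a mimosine peak. Where HU cells also had a peak, these had a median asynchronous rank of 16.1 in isolated and 15.9 in other regions. The mimosine list is also shorter, at 11532 peaks against 13160. The median asynchronous rank of these regions was 61.2 in isolated and 60.9 in other regions, while the median mimosine rank was 50.1 and 55.1. Across the 295 regions, which share 3 libraries and 1 control, Spearman's rho of the ranks was 0.879 for mimosine and asynchronous cells, 0.903 for HU and asynchronous cells and 0.921 for mimosine and HU cells. Other regions gave 0.897, 0.922 and 0.937.

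In HU cells the peak was the wider, relative to asynchronous cells, in 215 of 295 isolated regions (72.9%, 67.4 to 77.9%), beside a background of 75.1%. The median ratio was 1.08 (0.991 to 1.19), against 1.09 (1.00 to 1.21) in other regions. The rank percentile in HU minus that in asynchronous cells had a median of -0.60 in isolated and 0.10 in other regions.

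**Figure D4:**
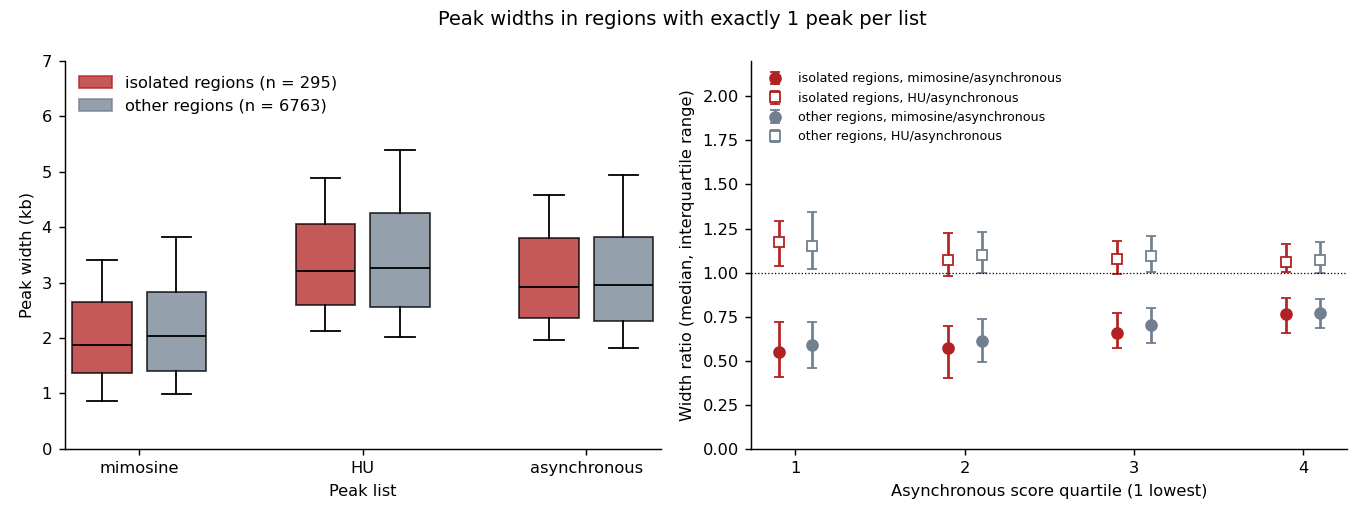
Peak widths in regions with exactly 1 peak per list, 295 isolated (red) and 6763 other (grey). The left panel shows width in kb per list as medians, interquartile boxes and whiskers from the 10th to the 90th percentile, and the right panel the median width ratio with its interquartile range in quartiles of asynchronous score (filled circles mimosine/asynchronous, open squares HU/asynchronous). In isolated regions the mimosine ratio was 0.571 in the second and 0.658 in the third quartile, against 0.613 and 0.701 in other regions.

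Single regions spanned a wide range of mimosine widths. The lowest ratio was in chr7:14027059-14031859, where the mimosine peak covered 524 bp, against 4301 bp in asynchronous cells, a ratio of 0.122. Its rank percentile was 8.32 in the mimosine list and 67.4 in the asynchronous list, and the HU peak measured 4801 bp at rank percentile 55.6. In chr10:10832342-10837161 the widths were 577 bp in mimosine, 4820 bp in HU and 4619 bp in asynchronous cells, with rank percentiles of 2.12, 46.8 and 60.3. These were sites where HU and asynchronous cells had peaks of middle rank and mimosine cells had a peak near the lower limit of its list. The next were chr3:157248124-157252069, chr1:198903776-198906997 and chr2:163173678-163176100, with ratios of 0.154, 0.187 and 0.193.

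At the other end, the mimosine peak was the wider in 2 isolated regions. The region chr10:99893534-99896890 had 2252 bp in mimosine, 3357 bp in HU and 2178 bp in asynchronous cells, at similar rank percentiles of 70.7, 69.2 and 71.7. The region chr7:17977004-17981556 had 3882, 4553 and 3798 bp, at rank percentiles of 49.2, 52.0 and 61.4. Ratios of 0.998, 0.986 and 0.981 followed at chr21:27538529-27544171, chr3:187454531-187466222 and chr3:81807814-81812387, which are described above for other reasons. The last of these has 2738 kb without a BRPF3 region on its nearer side.

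The largest HU widths relative to asynchronous cells were at chr12:127254716-127257232, chr5:110845360-110849455 and chr9:119448262-119452839. At the first, the HU peak covered 2517 bp and the asynchronous peak 1255 bp, a ratio of 2.01, and the mimosine peak covered 497 bp. The other ratios were 1.74 and 1.73, with HU peaks of 4096 and 4578 bp. HU rank percentiles were 34.0, 71.2 and 42.5 at these regions, against asynchronous rank percentiles of 19.4, 50.9 and 39.0.

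Isolated regions are given next by the size of their nearer gap. Gap and list membership both entered the rule, so the shares are a description from which nothing is read. In the 242 regions with a nearer gap of up to 500 kb, 75.2% were called in all 3 lists (69.3 to 80.5%). The share was 68.8% (61.3 to 75.6%) in 173 regions with 500 to 1000 kb, and 57.9% (46.0 to 69.1%) in 76 regions with over 1000 kb. Calls in a single list made up 11.2%, 14.5% and 23.7% of these groups (7.48 to 15.8%, 9.57 to 20.6% and 14.7 to 34.8%). The median merged width was 3174, 2953 and 2246 bp, and the median asynchronous rank percentile 54.9, 50.9 and 43.0. The median ratio of mimosine to asynchronous width was 0.664, 0.675 and 0.615, on 157, 100 and 38 regions. Across all isolated regions the relation was weak, with Spearman's rho of -0.15 between nearer gap and merged width over 491 regions and -0.11 between nearer gap and asynchronous rank percentile over 441.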

How the data were processed

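The members, and the quantities compared, were chosen with earlier results of these data known. The authors deposited 1 list of peaks per BRPF3 library, each with positions and a score, and by their names all deposited lists were called against the IgG library. The submitters' processing notes list Bowtie 0.12.8 and MACS 1.4.0 beside SAMtools and bedtools, and both hg18 and hg19. On chromosomes 1, 2 and 12, 103 peaks end past the chromosome in hg18, 82 in GRCh38 and 0 in hg19, so hg19 was used. The deposited score, at least 50, was used only within a list.

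Peaks were merged and gaps measured edge to edge with Python 3.11.15, pandas 2.3.3, NumPy 2.4.6 and SciPy 1.17.1, and the code was tested on simulated peaks with planted gaps. Shares have exact Clopper-Pearson 95% intervals, which treat regions as independent. Regions named in the text were the extremes of score, width, gap, width ratio and number of peaks, the leader of each class by list, and those nearest to the limit. Reads and read depth were not analysed here. No genome or annotation of hg19 was used, so no gene, base composition or sequence is given. Alternatives were another distance (200 or 500 kb), a score of at least 100, merging within 1 kb, centre distances, a neighbour on both sides, equal numbers of peaks and a reciprocal overlap of 50%.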

Additional observations from a re-analysis of the deposited data

How the results depend on the processing

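Neighbours counted without the regions of a single list were an alternative chosen after seeing the data, and the others were planned. No paired analysis was possible because each condition had 1 library. Of 94 alternative values, 74 stayed within 1.5 times the count or inside the 95% interval of the reported value, and 20 did not. A distance of 200 kb gave 855 and 500 kb gave 249 isolated regions, by construction, and at 500 kb the share in all 3 lists was 65.5% and the median width 2745 bp. With scores of at least 100 there were 514 isolated regions, of which 412 overlapped an isolated region of the full lists. There, 22.5% of isolated regions called in HU and asynchronous cells had no mimosine peak, against 20.3% of other regions. Single-list calls made up 9.14%, the median width was 3282 bp and the median asynchronous rank percentile 58.2. With 5766 top-scoring peaks per list, no mimosine peak was found in 8.80% of isolated and 7.06% of other regions. The isolated regions had a median width of 4073 bp, a median mimosine/asynchronous ratio of 0.721 and a median asynchronous rank percentile of 79.0. The share over 10 kb was 2.44%. Weak peaks were left out and 698 regions were isolated, so the members also changed, and these effects were not separated. A reciprocal overlap of 50% gave 38.8% with no mimosine peak and 51.7% in all 3 lists. Requiring mimosine peaks of score 100 or more left 31.7% without one. For other regions, shares under these settings were not worked out. Without HU-only regions as members or neighbours, 77.4% were in all 3 lists, 6.35% in a single list and the median width was 3192 bp. Without asynchronous-only regions, 10.3% were in a single list. Both drop a class by construction. In each of the 10 alternatives that find members anew, isolated regions had a lower median mimosine/asynchronous ratio than other regions and a lower share in the highest 10% of asynchronous scores. With equal numbers of peaks these were 0.721 against 0.751, and 23.4% against 25.7%, with overlapping intervals for the share. At 200 kb the intervals of the median ratio overlapped, at 0.664 to 0.701 in isolated and 0.694 to 0.704 in other regions. All alternatives use the same lists of peaks, so they are not independent of each other. Unknown read depth limits what a missing peak means.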

Other observations

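On chromosomes 13, 17, 18, 19, X and Y, which the rule left out, the same distance gave 92 isolated regions of 2689 (3.42%, exact 95% interval 2.77 to 4.18%). Chromosome X had 37 of 402 (9.20%, 6.56 to 12.5%), chromosome 13 had 23 of 256 (8.98%, 5.78 to 13.2%) and chromosome 18 had 16 of 204 (7.84%, 4.55 to 12.4%), against 10 of 858 on chromosome 17 and 3 of 955 on chromosome 19. Chromosome Y held 14 regions, of which 3 were isolated (21.4%, 4.66 to 50.8%). A peak in all 3 lists was found in 61 of these 92 (66.3%, 55.7 to 75.8%). Of the 82 called in HU and asynchronous cells, 21 had no mimosine peak (25.6%, 16.6 to 36.4%), beside 17% of all such merged regions. The 17% is taken over all chromosomes, those of the rule included. The share for all regions of the left-out chromosomes alone was not worked out, so nothing is read from this difference. The counts were 12 of 35 on chromosome X (34.3%, 19.1 to 52.2%), 5 of 19 on chromosome 13, 2 of 15 on chromosome 18, 1 of 8 on chromosome 17, 0 of 3 on chromosome 19 and 1 of 2 on chromosome Y.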
